A study of Dugesia japonica with 18 samples.

Results

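Among 25566 gene models of the planarian Dugesia japonica, 123 fell moderately over the week after X-irradiation and passed the 50% mark of that fall between day 0.5 and day 1. They were chosen by their measured levels in CPM (counts scaled to a common total over the gene models of a library), averaged over the 3 libraries of each day. A member had a mean of at least 20 CPM at day 0 and a day 7 level between 2-fold and 4-fold below it. Expressed as log2 of the day's mean plus 0.5 CPM over the day 0 mean plus 0.5 CPM, its change was short of 50% of the day 7 fall at day 0.5 and had reached at least 50% of it at day 1. The choice used days 0, 0.5, 1 and 7. Levels on those days are therefore a description of what was selected, and the days 3 and 5 are those the choice did not use. Of 4963 gene models with at least 20 CPM at day 0, 438 fell moderately by day 7. Of these, 104 had reached 50% of the fall at day 0.5, the 123 members reached it at day 1, and 211 reached it later.

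Planarians keep a population of dividing stem cells, the neoblasts, which are the only dividing cells of the adult body and the source of every new differentiated cell. X-rays destroy dividing cells, so RNA made in neoblasts is lost first after irradiation, and RNA made in their non-dividing descendants is lost later as those cells mature without being replaced. RNA of long-lived differentiated cells can remain. In RNA from whole animals, fewer cells of a type and less RNA per cell cannot be told apart. The deposited tables do not pair the gene model IDs with gene names, so no role in these processes can be given for any member, and markers of neoblasts, epidermal progeny, neurons, intestine or muscle could not be looked up.

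The animals were of the clonal strain SSP (sexualizing super planarian), about 5 mm long, starved for at least a week, and exposed as whole animals to 150 Roentgens of X-rays. The 18 libraries form 6 groups of 3 biological replicates, taken at day 0 and after 0.5, 1, 3, 5 and 7 days, and all were made from whole bodies. The design text describes day 0 as unirradiated and leaves out day 0.5, whereas the treatment protocol states the dose with no exception. How many animals went into a library is not stated in those texts. Animals left unirradiated until the later days were not analysed here, so irradiation and elapsed time cannot be told apart in any change described below.

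Messenger RNA was counted near its 3' end (Lasy-Seq). Library totals over gene models became smaller over the week, from 7760430 to 12605652 counts at day 0 to between 4679195 and 6114135 at day 7. No member was rare in the table. The lowest count of any member in any library was 143 at day 0 and 20 over the whole course, the latter at day 5. All 123 passed the filter on low counts, as did 17129 gene models in all.

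The members covered a wide range of abundance. Mean day 0 levels ran from 20.1 to 1959 CPM, with a median of 62.7 CPM and an interquartile range of 35.7 to 366 CPM. No member lay between 177 and 224 CPM. Above this gap lay 39 members, or 31.7%, against 13.6% of the gene models with at least 20 CPM. The same share was 34.1% among the 211 moderate falls that reached 50% after day 1 and 7.69% among the 104 that reached it at day 0.5. Among 36 stronger falls (at least 4-fold by day 7) that reached 50% at day 1, it was 22.2%. At least 1000 CPM at day 0 was reached by 17 members. The limit of 200 CPM used below was set after these levels were seen, so the abundant members are described and not tested.

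Together the 123 members held 3.83%, 3.50% and 3.68% of the counts in the 3 day 0 libraries, and 1.59%, 1.66% and 1.45% in those of day 7. In between, the libraries held 2.86%, 2.42% and 2.60% at day 0.5 and 2.34%, 2.25% and 2.27% at day 1. They held 1.90%, 1.83% and 1.62% at day 3 and 1.64%, 1.62% and 1.62% at day 5. The ranges of days 0, 0.5, 1 and 3 did not overlap with each other, whereas the lowest day 3 library, replicate 3, lay among the day 5 libraries, and the day 5 and day 7 ranges overlapped. The 39 abundant members made up most of this, with a mean of 3.22% of the counts at day 0 and 1.40% at day 7. The other 84 held 0.454% and 0.171%.

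**Figure D1:**
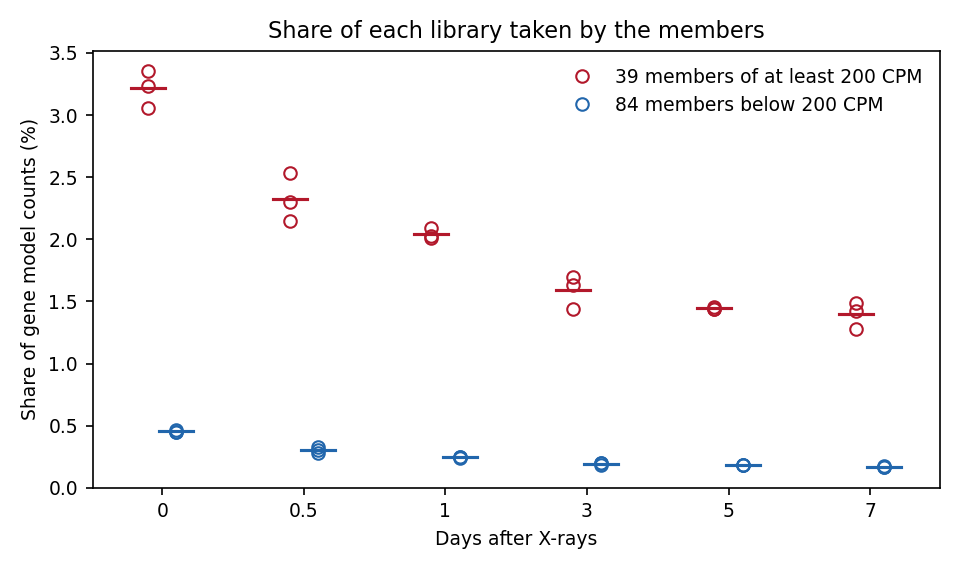
Share of each library's gene model counts (y axis, percent) against the day after irradiation (x axis, not to scale), for the 39 members of at least 200 CPM and the 84 below it, with 1 circle per library and a bar at the mean of the 3 libraries. The abundant members go from a mean of 3.22% at day 0 to 1.40% at day 7 and the others from 0.454% to 0.171%.

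Median levels on the log2 scale relative to day 0 were -0.53 at day 0.5 and -0.78 at day 1, and they reached -1.29 at day 7. On the days not used in the choice, the median was -1.11 at day 3 (interquartile range -1.30 to -1.001) and -1.22 at day 5 (-1.44 to -1.09). As a share of the day 0 level, these medians were 69.3%, 58.1%, 46.2%, 42.8% and 40.8% over the 5 later times. Over all gene models with at least 20 CPM at day 0, the median stayed between 0.03 and 0.10 on the log2 scale at all 5 times.

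Day 3 was the time by which most of the remaining fall was over. Members had a median of 86.2% of their day 7 fall at day 3, with an interquartile range of 80.1% to 94.3%, and 93.1% at day 5 (85.9% to 102.5%). For comparison, the moderate falls that reached 50% at day 0.5 had medians of 95.5% on both days, and those that reached it after day 1 had 68.3% and 81.1%. The strong falls that reached 50% at day 1 had 86.7% and 92.8%, close to the members on these 2 days though deeper in extent. At day 1, a day used in the choice, the strong falls were further along, with a median of 69.8% against 59.2% for the members. These groups were defined by the same days, and the differences between them were not tested.

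**Figure D2:**
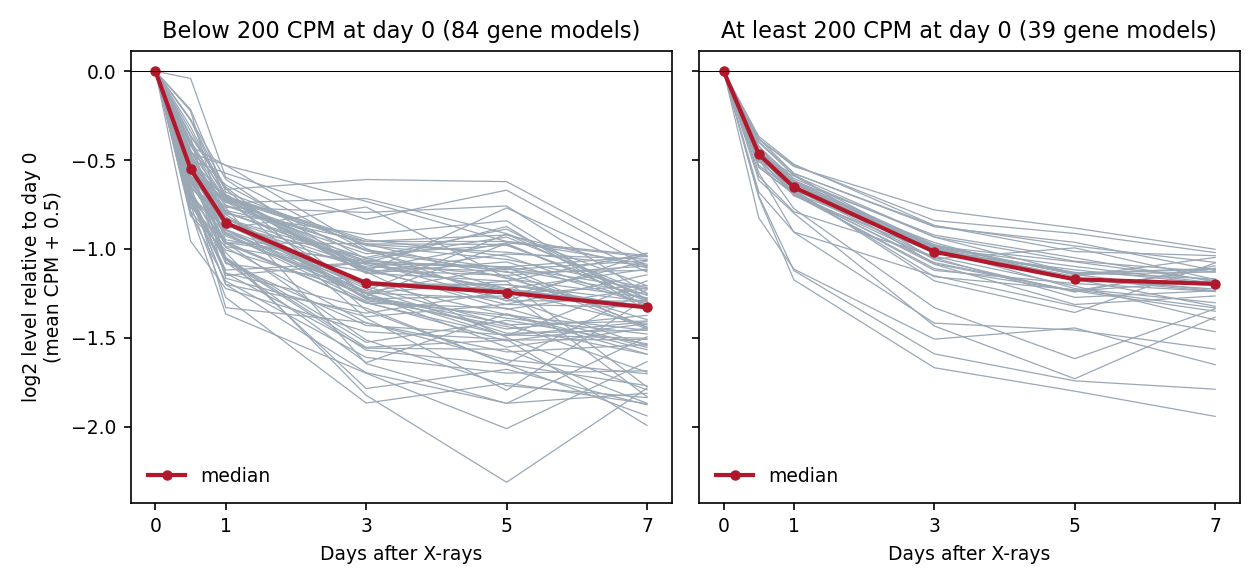
Log2 level relative to day 0 (y axis) against days after irradiation (x axis), with 1 grey line per member and the median in red, for the 84 members below 200 CPM at day 0 (left) and the 39 at or above it (right). The medians at day 3 are -1.19 and -1.02, and most lines on the right lie close together while those on the left spread out.

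The course to the lowest level was not the same for all members. The lowest mean was at day 7 for 81 members, at day 5 for 36 and at day 3 for 6. At day 3, 17 members were already below their own day 7 level, and at day 5 there were 39. The choice itself requires a fall from day 0.5 to day 1, so all 123 had one by definition. All 123 also had a lower mean at day 0.5 than at day 0, against 45.3% of gene models with at least 20 CPM. That step was not required, but both of its days entered the choice. A mean that fell at every successive day was found for 54 members, against 377 of the 4963 gene models with at least 20 CPM. Every member already met the steps to day 0.5 and day 1, so the choice of members sets part of this difference. The members' share of the fall ranged from 54.7% to 120.6% at day 3 and from 59.7% to 140.8% at day 5.

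The most abundant members were also the most alike. The 17 members with at least 1000 CPM at day 0 lay between -1.16 and -0.84 on the log2 scale at day 3. At day 5 they lay between -1.23 and -0.91, with standard deviations over members of 0.0864 and 0.0894. Among the 53 members below 50 CPM the standard deviations were 0.261 and 0.348, and among those of 50 to 200 CPM (31 members) they were 0.244 and 0.238. Members of 200 to 1000 CPM (22 in number) had 0.228 and 0.238, so the narrow range was seen above 1000 CPM. Counting error is larger at low levels, and its part in this difference was not tested. The 39 abundant members had a somewhat shallower course, with medians of -1.02, -1.17 and -1.20 over days 3, 5 and 7, against -1.19, -1.25 and -1.33 for the other 84.

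DjGI010141-001 was the most abundant member. Its day 0 libraries stood at 2100, 1825 and 1954 CPM, those of day 0.5 at 1611, 1300 and 1398 CPM, and those of day 1 at 1282, 1246 and 1226 CPM. The day 3 libraries stood at 1070, 1010 and 872 CPM, those of day 5 at 865, 883 and 872 CPM, and those of day 7 at 839, 872 and 778 CPM. All day 3 libraries lay below all day 1 libraries, but day 3 replicate 3 lay within the day 5 range, and days 5 and 7 overlapped. Its fitted log2 change from day 0 was -1.02 ± 0.102 (SE) at day 3, with an edgeR adjusted p of 7.72e-09, and -1.25 ± 0.103 at day 5, with an edgeR adjusted p of 1.08e-10. From day 1 to day 3 its log2 change of -0.34 ± 0.102 did not pass the test (edgeR adjusted p = 0.0719). From day 3 to day 5 the value was -0.23 ± 0.102 (edgeR adjusted p = 0.464).

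DjGI017147-001 had the lowest fitted change of any member from day 3 to day 5, and it was among the least abundant. Its day 0 libraries stood at 15.1, 20.9 and 25 CPM, those of day 0.5 at 10.8, 9.30 and 14.5 CPM, and those of day 1 at 8.53, 10.01 and 10.7 CPM. The day 3 libraries stood at 4.56, 7.21 and 4.37 CPM, those of day 5 at 3.82, 3.44 and 3.79 CPM, and those of day 7 at 4.03, 5.56 and 7.03 CPM. The day 5 libraries were the lowest, without overlap with day 3 or day 7, on counts of 20 to 27 per library. Its log2 change from day 3 to day 5 was -0.59 ± 0.274 (SE; edgeR adjusted p = 0.506), and from day 5 to day 7 it was 0.58 ± 0.293 (edgeR adjusted p = 0.354). From day 1 to day 3 it fell by 0.86 ± 0.226 on the log2 scale (edgeR adjusted p = 0.0308), a call that was lost when replicate 2 or 3 of day 1 or replicate 1 or 3 of day 3 was left out.

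**Figure D3:**
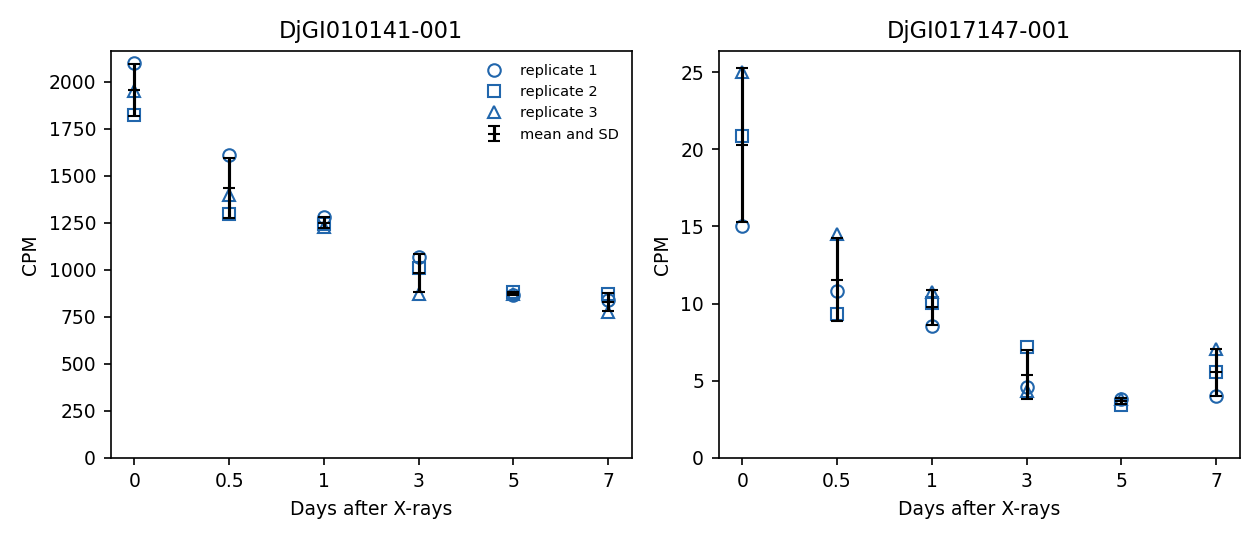
Level in CPM (y axis) of DjGI010141-001 and DjGI017147-001 against the day after irradiation (x axis, not to scale), with 1 blue symbol per library and bars for the mean and SD of 3 libraries. DjGI010141-001 goes from a mean of 1959 CPM at day 0 to 829 CPM at day 7, and DjGI017147-001 from 20.3 CPM at day 0 to its lowest mean of 3.69 CPM at day 5.

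The quasi-likelihood test of edgeR was fitted across all 17129 gene models, with p-values adjusted over all of them and a threshold of 0.05. Relative to day 0, it called 106 members lower at day 0.5 (7.44% of all gene models tested were called lower; 68 members without replicate 2 of that day) and 122 at day 1 (12.8%). At day 7 all 123 were called lower (23.2%). These days chose the members, so the calls add nothing to the choice. Of the 17 members not called at day 0.5, 14 averaged below 50 CPM at day 0. The member not called at day 1 averaged 177 CPM at the start. Its fitted value there was -0.74 ± 0.273 on the log2 scale (SE), with an edgeR adjusted p of 0.0539.

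At day 3 all 123 members were called lower than day 0, and so were 18.5% of all gene models tested and 27.1% of those with at least 20 CPM at day 0. At day 5 all 123 were called lower, against 20.9% and 32.9%. At both days, all 3 libraries of every member lay below all 3 of day 0, as did those of 30.3% (day 3) and 32.4% (day 5) of gene models with at least 20 CPM. The day 0 libraries took part in the choice, and both comparisons share them.

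From day 0.5 to day 1, between days that the choice used, 20 members were called lower (0.847% of all gene models tested). That count was 6 to 11 without any one of the day 1 libraries or of replicates 1 and 3 of day 0.5. It was 1 with ERCC scaling, 11 with thinned libraries, 13 with library totals and 32 with counts summed over the first number of the ID. In that last setting, members with the same first number share 1 test, so a single call can count for several members. From day 1 to day 3, 33 of the 123 members fell and none rose by edgeR. Over all gene models tested, 2.48% fell and 0.543% rose in this step, and 6.55% of those with at least 20 CPM fell. At an unadjusted p below 0.05, 91 members were lower and 0 higher, against 17% lower among gene models with at least 20 CPM. DESeq2 called 43 members lower and 0 higher, against 2.71% lower over all gene models tested. The 33 calls had log2 changes from -0.92 to -0.35, with a median of -0.47, and they carried 28 different first numbers of the ID. Over all 123 the median was -0.35 and the range -0.92 to 0.14, with 117 members below 0. All day 3 libraries lay below all day 1 libraries for 93 members and above them for none, against 21.2% below among gene models with at least 20 CPM. Day 1 entered the choice, which asked for a low day 1 level, so this step is described and is not independent.

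More of the abundant members passed this test. Of the 39 members with at least 200 CPM, 18 fell from day 1 to day 3, against 15 of the other 84. The size of the fall was similar, with median fitted log2 changes of -0.352 and -0.341, so more calls did not mean a deeper step. Among all gene models with at least 200 CPM, 12.6% fell. The call count rested on single libraries and on the scaling. Leaving out replicate 3 of day 3 gave 9, leaving out replicates 3 and 1 of day 1 gave 16 and 18, leaving out replicate 2 of day 3 gave 20, and leaving out replicate 3 of day 7 gave 50. It was 1 when libraries were scaled by the ERCC control RNAs, of which each library held only 190 to 487 counts. Library totals gave 50, and a fit of only the 6 libraries compared gave 56.

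The step from day 3 to day 5 is the one that shares no library with the choice of members. No member was called lower or higher in it by edgeR, against 1.10% lower and 0.0992% higher over all gene models tested, and 3.02% lower and 0.181% higher among those with at least 20 CPM. DESeq2 also called none. The median fitted log2 change of the members was -0.18 (interquartile range -0.25 to -0.07, range -0.59 to 0.32). Over all 17129 gene models tested it was -0.0018, and 4963 of these had at least 20 CPM at day 0, as every member had. Among the 4963, 59.4% had a lower mean at day 5 on the scaling of the fit. The median standard error of a member was 0.128, and the lowest edgeR adjusted p was 0.145. Values below 0 were found for 102 members and above 0 for 21. At an unadjusted p below 0.05, 30 members were lower and 2 higher by edgeR, against 12% and 3.49% of gene models with at least 20 CPM. DESeq2 gave 22 members in either direction, against 14.2%. The edgeR count in either direction, 32, rested on the scaling and on single libraries. It was 13 with library totals and 9 with ERCC scaling. Without replicates 1, 2 and 3 of day 3 it was 10, 13 and 47. The share over all gene models was not taken in these settings.

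The lean toward lower values in this step depended in extent on the scaling. With TMM (trimmed mean of M values) scaling, 102 members (82.9%) had a lower mean at day 5, against 59.4% of gene models with at least 20 CPM. With library totals it was 95 members (77.2%), against 43.8%. All 3 day 5 libraries lay below all 3 of day 3 for 15 members (12.2%) and above them for 4 (3.25%). The same was found for 10.5% and 13.3% of gene models with at least 20 CPM, so the share below was near the background. Of the 39 abundant members, 37 had a fitted value below 0, and of the other 84, 65 did.

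**Figure D4:**
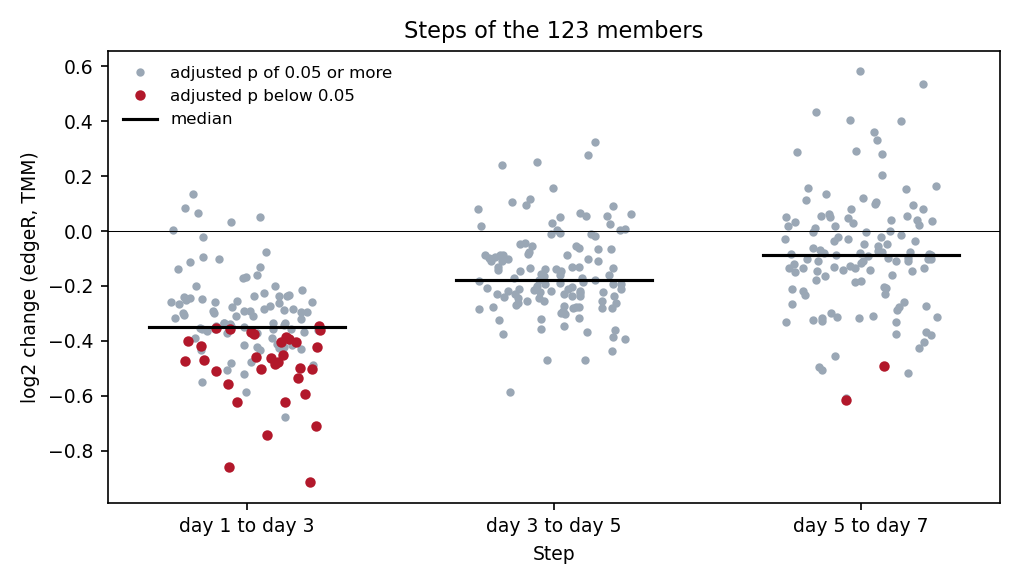
Fitted log2 change of each of the 123 members (y axis) in 3 steps between sampling days (x axis), with 1 point per member, red where the edgeR adjusted p was below 0.05, and a black line at the median. In the step to day 3, 33 members are red, in the step to day 5 none is, and in the step to day 7 there are 2.

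From day 5 to day 7, 2 members fell and none rose by edgeR. Over all gene models tested, 1.62% fell and 0.981% rose in this step, and 4.86% of those with at least 20 CPM fell. At an unadjusted p below 0.05, 18 members were lower and 3 higher, against 16.7% and 8.1% of gene models with at least 20 CPM. DESeq2 called 2 members lower and 0 higher, against 1.73% lower over all gene models tested. The members' calls in this step were thus near the background. DjGI010297-001 and DjGI014045-001, named here after their values were seen, were the members that fell. The day 0 libraries of DjGI010297-001 stood at 45.1, 40.7 and 39.4 CPM, those of day 5 at 18.8, 13.6 and 19.8 CPM, and those of day 7 at 11.7, 9.62 and 12.8 CPM. Its day 3 libraries, at 15.7, 18.3 and 13.8 CPM, overlapped with those of day 5, and its day 7 libraries lay below both. Its step to day 7 was -0.62 ± 0.155 (SE; edgeR adjusted p = 0.0277). The day 0 libraries of DjGI014045-001 stood at 165, 149.8 and 154 CPM. Those of day 5 stood at 48.9, 57.1 and 57.99 CPM and those of day 7 at 37.04, 44.7 and 35 CPM, without overlap. Its step was -0.49 ± 0.125 (SE; edgeR adjusted p = 0.0293). The count of 2 became 0 with ERCC scaling or with only the 6 libraries compared, and 1 without any one of the day 5 or day 7 libraries.

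In the step from day 3 to day 5, the moderate falls that reached 50% after day 1 had 45 of 211 called lower. Those that reached it at day 0.5 had none of 104 called, and the strong falls that reached it at day 1 had 1 of 36. From day 1 to day 3 the counts were 85 of 211, 10 of 104 and 14 of 36. The differences from the members were not tested.

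Libraries of the same day differed in a way that many members shared. At day 0.5, replicate 1 lay above its day's mean for 105 of the 123 members, with a median log2 deviation of 0.133, and replicate 2 lay above it for 19, with a median of -0.127. At day 3, replicate 3 lay above the mean for 26 members, with a median of -0.113, and replicates 1 and 2 for 93 and 82. The medians over all gene models with at least 20 CPM were 0.0471 and -0.0213 for those day 0.5 libraries and -0.00983 for day 3 replicate 3. The moderate falls of earlier and later timing shared the day 0.5 pattern, with 0.134 and 0.129 in replicate 1 and -0.159 and -0.0913 in replicate 2. In day 3 replicate 3 they had -0.0354 and -0.0682, and gene models with at least 200 CPM that are not members had -0.0551, so the low values there were not found in the members alone. Of the 39 abundant members, 3 lay above the day mean in day 3 replicate 3.

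On 4 of the 6 days, the library with the highest total had the lowest share of member counts. The part of depth in these deviations was not tested. With every library thinned to the smallest total, 24 members fell from day 1 to day 3 and none was called from day 3 to day 5 by edgeR.

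**Figure D5:**
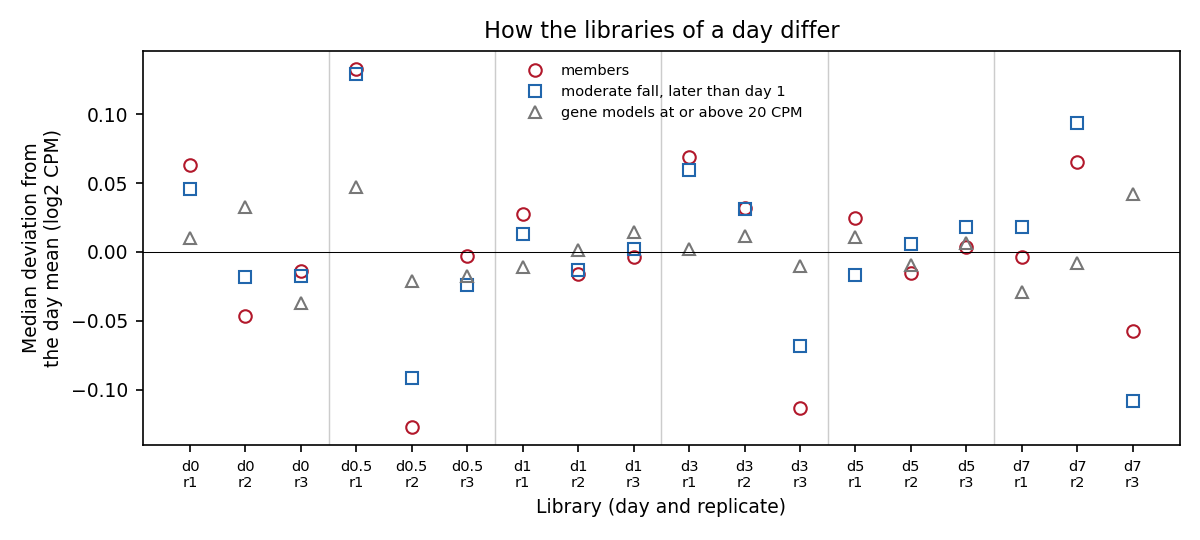
Median log2 deviation of the 123 members from the mean of their own day (y axis) in each of the 18 libraries (x axis, by day and replicate), as red circles, beside the moderate falls that reached 50% after day 1 (blue squares) and all gene models with at least 20 CPM at day 0 (grey triangles). Among the members, day 0.5 replicate 1 lies highest at 0.133, day 0.5 replicate 2 at -0.127, and day 3 replicate 3 at -0.113.

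Many member IDs shared their first number with another gene model, and reads may have been divided between near-identical copies. The 123 IDs carried 104 different first numbers, and 14 of these held more than 1 member, 33 members in all. In 8 of the 14, the day 0 levels of the members lay within 1.2 times of each other, a tolerance set after the levels were seen. For 1 set of 3 such IDs the day 0 levels were 298, 284 and 289 CPM, the day 3 levels 149, 141 and 148 CPM, and the day 7 levels 120, 121 and 125 CPM. Whether reads were divided was not tested, so the levels of such members are uncertain singly, and they may not be separate observations. Another ID with the same first number, member or not, existed for 44 members (35.8%), against 27.1% of gene models with at least 20 CPM.

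Within a first number that held more than 1 member, the log2 level differed by a median of 0.08 at day 3 (at most 0.28) and 0.085 at day 5 (at most 0.49). Of the IDs that share a first number with a member but are not members, 18 had at least 20 CPM at day 0. All 18 were lower at day 7 than at day 0. Of these, 6 fell moderately with 50% reached at day 0.5, 5 fell moderately with 50% reached after day 1, and 7 fell less than 2-fold.

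The members were bounded by thresholds and not by gaps. The day 7 log2 level was -1.002 for the member just inside the upper limit and -0.99 for the gene model just outside, and -1.99 and -2.01 at the lower limit. The share of the fall at day 1 was 50.2% just inside and 49.9% just outside, and at day 0.5 it was 49.96% and 50.4%. The day 0 level was 20.1 CPM inside and 19.98 CPM outside.

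The line at 50% on day 1 ran through many gene models. Between 50% and 55% of the fall lay 41 members, 24 of them with at least 200 CPM, and between 45% and 50% lay 62 moderate falls that were not members, 39 of them with at least 200 CPM. Both sides had similar later courses, with medians of -1.01 inside and -0.93 outside at day 3, and -1.23 and -1.21 on the last day. When each library was left out in turn, the number of members ran from 99 to 154, and 51 of the 123, of which 17 were abundant, met the criteria whichever library was left out. With TMM-scaled CPM 169 gene models met them, 119 of these being members. With the median of each day's libraries in place of the mean there were 129, of which 88 were members.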

How the data were processed

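The authors deposited 1 table of estimated counts, without normalization, with gene models as rows and 18 libraries as columns. Salmon, fastp 0.21.0 and BWA 0.7.17-r1188 were used, per the submitters' processing notes. The reference sequences and gene models are named neither there nor in the labels. A second deposited table gives each library's total count and sampling day, which matched the labels for all 18 libraries, with totals within 1 count. Of 25658 rows, 92 are ERCC control RNAs (0.004% of counts). These stayed out of library sizes and tests, except that an alternative scaled by them. Rounding touched 38 values that were not whole numbers, none of them in a member.

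Members and lists were chosen with earlier results of these data known. CPM in the text use library totals over gene models. Tests were run with edgeR 4.0.16 in R 4.3.3 on all 18 libraries, after its default filter by group (minimum count 10, minimum total 15) and TMM scaling (factors 0.937 to 1.13), with 1 mean per group, the two-sided quasi-likelihood F-test and Benjamini-Hochberg adjustment over 17129 gene models. Fitted log2 changes use TMM scaling. Standard errors were taken as the size of a change over the root of its F statistic. The code was tested on simulated data.

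Totals of 4679195 to 12605652 counts limit precision at low levels. With 3 libraries a group, p-values set a change against the spread between libraries of the same day, estimated over all 18 libraries together. The common biological coefficient of variation was 0.107. Same-numbered libraries of days 0 and 0.5 deviated together (correlations of 0.449, 0.343 and 0.163, from the data and not from the labels). For every other pair of days at least 1 of the 3 correlations was 0.1 or less. Alternatives were DESeq2 1.42.0, other scalings and filters, thinning, summed first numbers, a replicate block, only the 6 libraries compared, and leaving out each library. Added after seeing the data were the split at 200 CPM and the count of signs with library totals. The IDs named by rule were the most abundant member and the one with the lowest change from day 3 to day 5. No member met the rule for a rise from day 1 to day 3 or from day 5 to day 7.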

Additional observations from a re-analysis of the deposited data

Results flagged for a closer look

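The difference from day 0 changed between sampling days for some members, as shown by the test of the step itself. From day 1 to day 3, 33 members passed it (edgeR adjusted p below 0.05), and all 33 were lower at day 3. In this step 2.48% of all gene models tested were lower, and 6.55% of those with at least 20 CPM. From day 5 to day 7, 2 members passed it, and both were lower at day 7. That is near the background, at 1.62% of all gene models tested and 4.86% of those with at least 20 CPM. Each of these steps has 1 day that took part in the choice of members. From day 3 to day 5 no member passed it. At an unadjusted p below 0.05, edgeR gave 30 members lower and 2 higher, against 12% and 3.49% of gene models with at least 20 CPM. DESeq2 gave 22 members in either direction, against 14.2%. The edgeR count in either direction ran from 9 with ERCC scaling to 47 without day 3 replicate 3.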

How the results depend on the processing

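All 123 members were lower than day 0 at days 3 and 5 under every alternative run. The list of members was kept the same in these runs, and the day 0 libraries took part in its choice. By edgeR with TMM scaling, 18.5% and 20.9% of all gene models tested were lower on these days. The count from day 3 to day 5 was 0 in both directions, except that leaving out 1 library gave 0 to 1 lower (1 without day 7 replicate 3). The 33 falls from day 1 to day 3 became 1 with ERCC scaling, 50 with library totals, 56 when only the 6 libraries compared were fitted, 24 to 47 under the other alternatives, and 9 to 50 when 1 library was left out. The 2 falls from day 5 to day 7 became 0 with ERCC scaling and 0 with only the 6 libraries compared, and 1 to 2 when 1 library was left out, while the rises became 0 to 2 (2 without day 7 replicate 3). The cause of these changes was not tested, and the fit of 6 libraries has fewer samples. The median log2 level was -1.02 at day 3 for members of at least 200 CPM and -1.19 for the others, against -1.11 for all, and at day 5 it was -1.30 with TMM-scaled CPM, against -1.22. DjGI010141-001 changed by 0.033 from day 5 to day 7 without day 7 replicate 3, and by -0.13 to 0.033 over the libraries left out, against -0.07. DjGI010141-001 passed the test from day 1 to day 3 with DESeq2, library totals and the replicate block. DjGI017147-001 lost its call in that step with ERCC scaling, and without any one of 4 libraries (-0.85 to -0.71), as did DjGI010297-001 and DjGI014045-001 from day 5 to day 7 with ERCC scaling and without any one of 4 libraries each. Correlations of same-numbered libraries ran from -0.291 to 0.449, with 11 of 45 above 0.1, and only days 0 and 0.5 had all 3 above it. With the replicate block 108 members were lower at day 0.5, against 106, and the counts of falls were 37, 0 and 2 in the steps to days 3, 5 and 7, so the block moved none of these counts by over 1.5 times. The number of members was 127 and 124 with pseudocounts of 0.1 and 1 CPM, 159 with RLE scaling, 183 and 82 with minimums of 10 and 40 CPM, and 107 with counts summed over first numbers. Members below 50 CPM had the lowest counts, and the part of depth in these changes was not tested.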
